A study of Homo sapiens with 6 samples.

Results

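The genes described here are the deubiquitinases of the ubiquitin-specific protease (USP) family and 8 further named deubiquitinases, CYLD, OTUB1, OTUB2, OTULIN, UCHL1, UCHL3, UCHL5 and BAP1. They were picked by symbol, with a rule made when earlier results of these data were known. Of the 63140 rows of the deposited count table, 58 met the rule. They were measured by RNA-seq in NOZ-R, a gallbladder cancer line selected in steps of rising dose until it tolerated gemcitabine, a nucleoside analogue drug, and in NOZ, the established human line it came from, with 3 libraries of poly-A RNA from each. The labels do not state whether NOZ-R is 1 clone or a mixed population, whether the drug was present at harvest or whether the 3 libraries of a line came from separate cultures. The p-values therefore reflect only library-to-library spread, part or all of which may be technical.

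Deubiquitinases are proteases that cut ubiquitin, or a ubiquitin-like protein, from the proteins it is attached to, and so oppose the E1, E2 and E3 enzymes that attach it. The USP enzymes are the largest group in human cells, and the ubiquitin C-terminal hydrolases (UCH) and ovarian tumour domain (OTU) enzymes are smaller ones. USP18 stands apart within the family because it cuts ISG15, an interferon-induced ubiquitin-like protein, and because it also binds the interferon receptor subunit IFNAR2 and dampens its signalling.

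Library totals lay between 15661532 and 18855409 counts in NOZ-R and between 14136037 and 19244923 counts in NOZ, and the 58 genes took 0.318% to 0.327% of them in NOZ-R and 0.333% to 0.356% in NOZ. Of 6 epithelial markers, 3 were higher, 2 lower and 1 did not pass. Over all tested genes 30.4% were higher and 29.8% lower, which is the background for all marker counts given here. The keratins were abundant in both lines, with KRT7 at 824 ± 20.8 CPM in NOZ-R and 389.8 ± 30.4 CPM in NOZ (SD, n = 3 each), higher in NOZ-R, and KRT8 at 1127 ± 32.2 CPM in NOZ-R and 949 ± 89.5 CPM in NOZ (SD, n = 3 each), where CPM is the count scaled to the size of its library. EPCAM was lower, at 49.5 ± 1.63 CPM in NOZ-R and 73.1 ± 10.8 CPM in NOZ (SD, n = 3 each), and the epithelial cadherin CDH1, also lower, was near the detection limit, at 0.290 ± 0.173 CPM in NOZ-R and 1.03 ± 0.262 CPM in NOZ (SD, n = 3 each). Summed over 9 fibroblast markers, the level was 11.3 to 12.0 CPM in NOZ-R and 3.10 to 3.59 CPM in NOZ, and over 10 leukocyte and endothelial markers it was 14.5 to 15.7 CPM in NOZ-R and 5.71 to 8.69 CPM in NOZ. Of these lists, 5 fibroblast markers (3 higher) and 3 leukocyte and endothelial markers (2 higher) could be tested. COL1A2, DCN, LUM, THY1, FAP and POSTN had 0 counts in every NOZ library, and in NOZ-R POSTN had 62, 57 and 58 counts, FAP 17, 14 and 20 and COL1A2 3, 1 and 0. The third higher fibroblast marker, COL3A1, had 51, 66 and 38 counts in NOZ-R and 7, 1 and 11 counts in NOZ. COL1A1 went the other way, with 34, 25 and 29 counts in NOZ-R and 50, 55 and 33 counts in NOZ. Its log2 fold change of -0.54 did not pass (edgeR adjusted p = 0.0548), though the CPM of the lines did not overlap. PDGFRB, at 0.88, did not pass either (edgeR adjusted p = 0.147). PECAM1 had 155, 152 and 144 counts in NOZ-R and 39, 33 and 27 counts in NOZ, and CSF1R had 37, 21 and 33 counts in NOZ-R and 12, 8 and 7 counts in NOZ, both higher in NOZ-R. The leukocyte marker PTPRC, not tested, had 4, 2 and 5 counts in NOZ-R and 28, 14 and 7 counts in NOZ. The part of these markers in the results below was not tested. In such bulk samples, fewer cells that carry a transcript and less of it per cell cannot be told apart.

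Setting NOZ-R against NOZ shows which deubiquitinase transcripts differ in the resistant line. Among the deubiquitinases the difference was dominated by a single gene. USP18, the ISG15 protease, was 52.5 times as high in NOZ-R as in NOZ, and USP46 was the only other tested member past a 2-fold change. Of the 58 genes, 51 had enough counts to be tested. In NOZ-R 11 were higher and 16 lower, and 24 did not pass (edgeR's quasi-likelihood test, Benjamini-Hochberg adjusted p under 0.05 over 14386 genes). The share called, 27 of 51 genes or 52.9%, was below the 60.2% called among all tested genes. The shares in each direction over all tested genes were 30.4% higher and 29.8% lower. They are also the background for the counts of each role and list below.

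Most of the differences within the family were small. Of the 27 genes called, 17 changed by less than 1.5-fold. Fold changes are of NOZ-R over NOZ, so that a positive log2 value is higher in NOZ-R. The median size of the log2 fold change, without its sign, was 0.24 over the 51 tested members and 0.39 over all tested genes. A call with at least a 2-fold change was made for 2 members, or 3.92%, and for 16.5% of all tested genes. The median log2 fold change was -0.07 over the members and -0.01 over all tested genes. The libraries of NOZ-R and NOZ did not overlap for 29 of the 51 members, against 65.3% of all tested genes. The counts depended on scaling and on 1 library. Scaling by library size alone, which moved the median of all genes to -0.14 on the log2 scale, gave 6 higher and 22 lower members. Without NOZ replicate 2 there were 19 higher and 16 lower. The calls that this added were increases of USP2, CYLD, USP48, USP34, USP12, USP16, USP1 and USP32. NOZ replicate 2 also differed from the rest of its line by the GC content of its transcripts. Across genes, its deviation from the line's mean had a Spearman rho with GC of -0.484, where NOZ replicates 1 and 3 had 0.301 and 0.359. Deviations from a shared mean depend on each other, so these values are not independent. The NOZ-R libraries also varied, at 0.278, -0.0568 and -0.2.

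**Figure D1:**
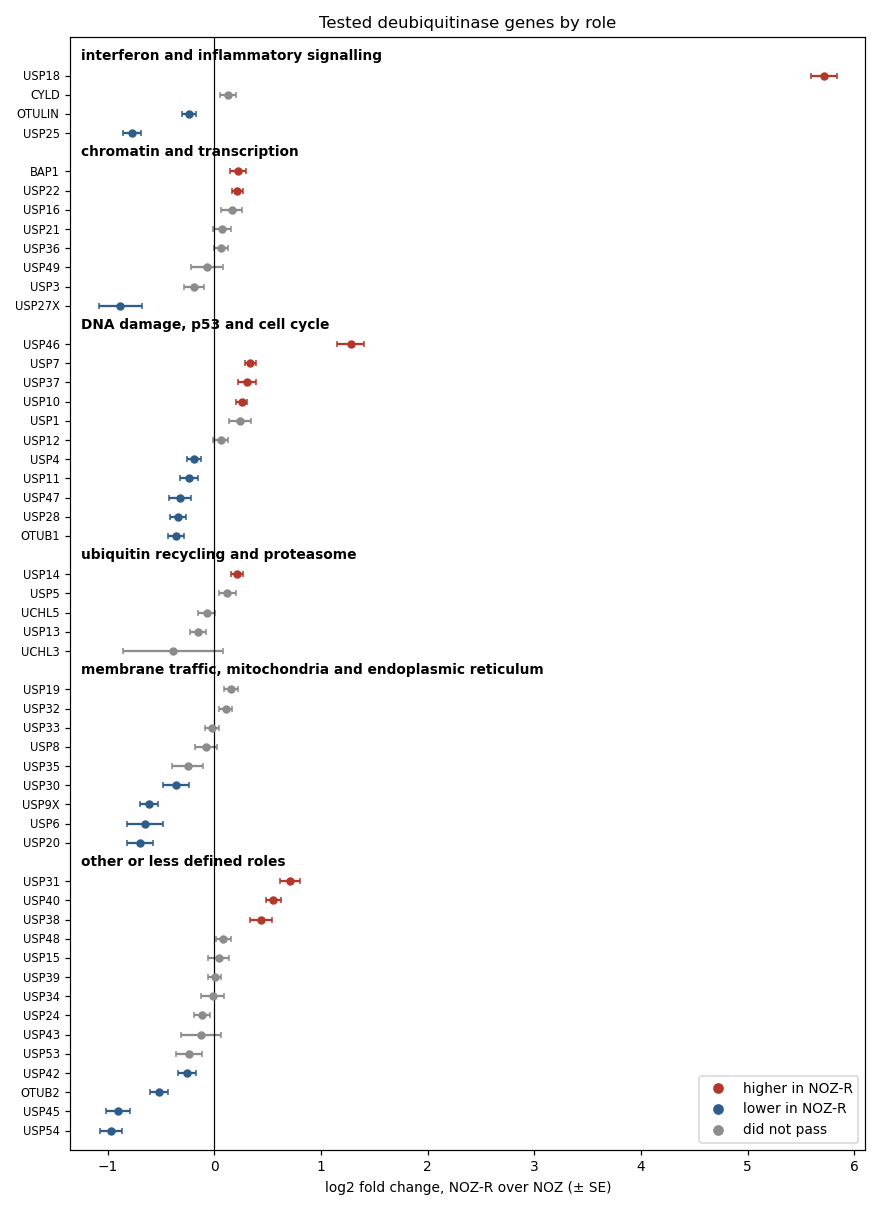
Log2 fold change of NOZ-R over NOZ with its standard error (x axis) for the 51 tested deubiquitinase genes, grouped by role. USP18 at 5.72 lies far from all others, USP46 at 1.28 is next, and the other members fall between -0.97 (USP54) and 0.71 (USP31).

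Levels between genes were compared per length, on the deposited FPKM values, which are scaled by the library total only. USP22, the deubiquitinase of the SAGA transcription coactivator complex, was the most abundant member on average in both lines, at 40.6 ± 1.62 FPKM in NOZ-R and 38.2 ± 0.891 FPKM in NOZ (SD, n = 3 each). USP1, which removes ubiquitin from the repair proteins FANCD2 and PCNA, followed at 36.3 ± 3.69 FPKM in NOZ-R and 33.7 ± 5.78 FPKM in NOZ (SD, n = 3 each), and these did not differ beyond their spread, since each held the first place in some library of either line. USP5, which takes apart free ubiquitin chains, took rank 3 in every NOZ-R library, at 33.5 ± 1.24 FPKM in NOZ-R and 33.7 ± 3.56 FPKM in NOZ (SD, n = 3 each). USP10 took rank 4 and USP7 rank 5 in every NOZ-R library. USP18 took rank 10 or 11 of 58 in the NOZ-R libraries, beside USP33 at 15.2 ± 0.591 FPKM in NOZ-R and 16.9 ± 1.14 FPKM in NOZ (SD, n = 3 each), and rank 50 or 51 in the NOZ libraries. USP18 measured 14.3 ± 0.719 FPKM in NOZ-R and 0.291 ± 0.0542 FPKM in NOZ (SD, n = 3 each). Its share of the summed FPKM of the 58 genes was 3.08%, 3.01% and 2.76% in the NOZ-R libraries, against 0.0721%, 0.0516% and 0.0512% in the NOZ libraries. The sum of the other 57 genes was 465 to 473 FPKM in NOZ-R and 489.9 to 509 FPKM in NOZ.

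**Figure D2:**
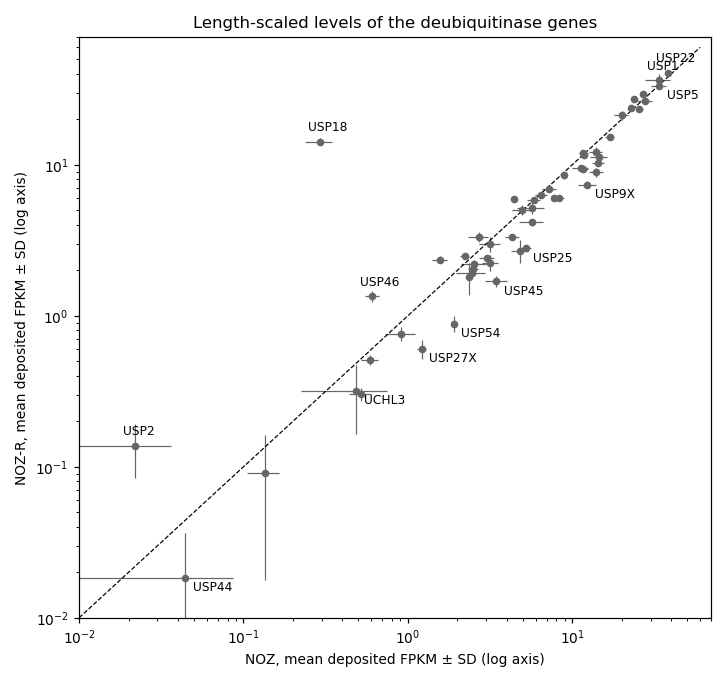
Mean deposited FPKM with its SD (n = 3 each, log axes) in NOZ-R (y axis) against NOZ (x axis) for each deubiquitinase gene with counts in both lines, with the diagonal dashed. Most genes lie along the diagonal, USP18 lies far above it, and bars that reach 0 end at the edge of the plot.

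USP18 (chromosome 22, 18149899 to 18177397, GENCODE release 29 on GRCh38) had 1229, 1088 and 928 counts in the NOZ-R libraries, against 30, 20 and 16 counts in the NOZ libraries. Scaled by library, that was 67.9, 67.4 and 62.2 CPM in the NOZ-R libraries, against 1.5, 1.11 and 1.08 CPM in the NOZ libraries. The lowest NOZ-R library was far above the highest NOZ library. The log2 fold change of 5.72 ± 0.123 (edgeR SE, adjusted p = 3.25e-13) ranked 109, from the largest increase downward, among the 14386 tested genes and ran from 5.63 to 5.90 when any 1 library was left out. The median log2 fold change of the 57 tested genes within 5 Mb on either side of USP18 was 0.13. USP41P, the row for the near-identical copy of USP18 on the same chromosome, had 0 counts in every library. Reads that match both copies cannot be told apart in such a table, and no source used here says how the authors' counting treated them.

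ISG15, which USP18 removes from proteins, and most of the genes for its attachment were also higher in NOZ-R. Of 13 genes listed for ISG15 conjugation and for the receptor and transcription factors upstream, all were tested, with 9 higher, 2 lower and 2 not past the threshold. The median log2 fold change was 1.76, beside -0.01 over all tested genes. This list was made with earlier results of these data known. ISG15 itself measured 179, 182 and 157 CPM in the NOZ-R libraries, against 52.9, 42.6 and 57.5 CPM in the NOZ libraries. The lines did not overlap, and the log2 fold change was 1.76 ± 0.0970 (edgeR SE, adjusted p = 3.67e-09). UBA7, the E1 enzyme that activates ISG15, measured 32.3, 27.3 and 28.8 CPM in NOZ-R and 7.14, 6.92 and 7.72 CPM in NOZ, a log2 fold change of 2.02 ± 0.104 (edgeR SE, adjusted p = 1.90e-09). UBE2L6, its E2 enzyme, measured 213, 212 and 201 CPM in NOZ-R and 39.5, 38.3 and 39.6 CPM in NOZ, a log2 fold change of 2.41 ± 0.0606 (edgeR SE, adjusted p = 1.29e-12). Every NOZ-R library was above every NOZ library for both enzymes. HERC5, the main human E3 ligase for ISG15, was rare, at 5.14, 6.88 and 7.58 CPM in NOZ-R and 1.5, 1.16 and 1.29 CPM in NOZ, and rose by 2.29 ± 0.215 (edgeR SE, adjusted p = 7.31e-07) as a log2 value. HERC6, a close relative that attaches ISG15 in mouse, rose by 4.08 ± 0.102 (edgeR SE, adjusted p = 1.23e-12). TRIM25, which also acts as an ISG15 ligase, rose by 1.53 and another E3 ligase, ARIH1, was lower by a small amount, at -0.17 ± 0.0660 (edgeR SE, adjusted p = 0.0402), which 9 of the 17 alternative settings did not call.

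As folds, USP18 was at 52.5, HERC6 at 16.9, UBE2L6 at 5.32, UBA7 at 4.07 and ISG15 at 3.39, and the differences between these folds were not tested. STAT2 and IRF9, subunits of the transcription factor that type I interferon activates, rose by 2.01 and 1.06 as log2 values (edgeR adjusted p = 1.89e-11 and 0.00335). STAT2 is also the protein that brings USP18 to the receptor. The receptor subunit genes did not pass the test. IFNAR1 measured 49.9, 55.7 and 60.9 CPM in NOZ-R and 40.9, 58.9 and 49.4 CPM in NOZ. IFNAR2, to which USP18 binds, measured 1.55, 1.30 and 0.671 CPM in NOZ-R and 1.85, 1.83 and 1.83 CPM in NOZ, without overlap, a log2 fold change of -0.62 ± 0.303 (edgeR SE, adjusted p = 0.0936). SKP2, a subunit of a ubiquitin ligase known to act on USP18, fell to 55.1, 48.7 and 53.7 CPM in the NOZ-R libraries, against 119, 122 and 125 CPM in the NOZ libraries, a log2 fold change of -1.22 ± 0.0658 (edgeR SE, adjusted p = 3.12e-09).

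**Figure D3:**
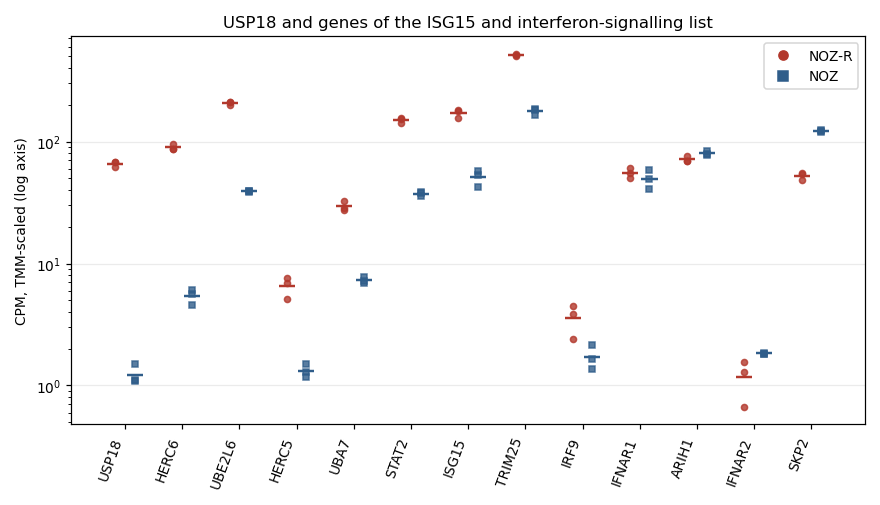
CPM on a log axis in each NOZ-R library (red circles) and NOZ library (blue squares), with bars at the means, for USP18 and genes of the ISG15 and interferon-signalling list. USP18, ISG15, UBA7, UBE2L6, HERC5 and HERC6 were higher in NOZ-R without overlap, while the receptor gene IFNAR1 overlapped between the lines and SKP2 was lower.

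Promoters were searched for the core of the interferon-stimulated response element, GAAA followed by any 2 bases (N) and GAAA, on both strands, because genes of this group rose together. The windows, from RefSeq on GRCh38.p14, run from 250 bases before to 50 bases after a gene's start. Windows were matched for 46 of the 58 deubiquitinase genes and for 10 of the 13 genes of the ISG15 list, and USP18 was among the 12 members with no window. The core was found in 0 of 65 windows of the members, against 3.57% of all 35116 windows. By gene, it was found for 2 of 10 genes of the list (20%), ISG15 and HERC5, and for 4 of 22 partner subunits of the members (18.2%), against 4.38% of all genes with a window. In the further lists described below, it was found for 1 of 22 genes of other deubiquitinase families (4.55%). The proteases of other ubiquitin-like proteins gave 1 of 11 (9.09%), and the ubiquitin genes and activating enzymes 0 of 4. These shares were not tested. The windows of ISG15 (plus strand, chr1:1013247-1013546) and HERC5 (plus strand, chr4:88456869-88457168) are shown for the matches they hold, with the matches in capitals. USP46 (minus strand, chr4:52659252-52659551, 1 of its windows) is shown as the tested member with the second largest increase, and it holds no match.
ISG15: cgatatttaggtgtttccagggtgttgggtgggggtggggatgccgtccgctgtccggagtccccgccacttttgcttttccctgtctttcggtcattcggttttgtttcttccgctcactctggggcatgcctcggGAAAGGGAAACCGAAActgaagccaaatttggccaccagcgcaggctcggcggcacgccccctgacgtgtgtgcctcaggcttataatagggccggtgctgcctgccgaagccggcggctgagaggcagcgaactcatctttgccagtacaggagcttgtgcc
HERC5: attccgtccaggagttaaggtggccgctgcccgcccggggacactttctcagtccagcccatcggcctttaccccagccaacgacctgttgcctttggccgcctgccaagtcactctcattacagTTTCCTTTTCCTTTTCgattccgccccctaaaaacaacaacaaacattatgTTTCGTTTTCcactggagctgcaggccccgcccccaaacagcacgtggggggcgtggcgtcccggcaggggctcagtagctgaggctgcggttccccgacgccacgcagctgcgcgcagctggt
USP46: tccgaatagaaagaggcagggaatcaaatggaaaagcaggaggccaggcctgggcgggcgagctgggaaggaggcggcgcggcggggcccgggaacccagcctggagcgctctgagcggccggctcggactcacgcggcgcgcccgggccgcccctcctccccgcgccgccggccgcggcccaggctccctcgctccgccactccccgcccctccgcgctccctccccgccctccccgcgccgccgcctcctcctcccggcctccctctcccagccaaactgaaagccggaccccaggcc
The 2 matches of ISG15 overlap each other and begin 113 and 107 bases before the gene's start. Of the 3 matches of HERC5, all on the opposite strand, 2 overlap, beginning 125 and 119 bases before the start, and the third begins 74 bases before it. A match is a description of these letters, not a site of binding.

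Of the 3 other members grouped here under interferon and inflammatory signalling, 2 were lower and 1 did not pass, while USP31 and USP38, described further on and also tied to such signalling, were higher. CYLD (chromosome 16, 50742050 to 50801935), a tumour suppressor that cuts lysine-63-linked and linear ubiquitin chains and restrains NF-kappaB signalling, measured 75.3, 79.8 and 81.9 CPM in NOZ-R and 66.3, 78.5 and 72.3 CPM in NOZ, and the libraries of the lines overlapped. Its log2 fold change of 0.13 ± 0.0730 (edgeR SE, adjusted p = 0.148) did not pass. The sign was negative under scaling by library size alone, and the gene passed without NOZ replicate 2 (0.19, edgeR adjusted p = 0.0102). OTULIN (chromosome 5, 14664664 to 14699711), which cuts linear chains only, was lower, at 56.1, 55.1 and 54.7 CPM in NOZ-R and 65.4, 67.6 and 62.8 CPM in NOZ, with no overlap and a log2 fold change of -0.24 ± 0.0638 (edgeR SE, adjusted p = 0.00539). USP25 (chromosome 21, 15730025 to 15880069), which acts on the adaptor TRAF3 in innate signalling, fell to 22.3, 22.7 and 24.0 CPM in the NOZ-R libraries, against 37.3, 42.7 and 37.6 CPM in the NOZ libraries. Its log2 fold change was -0.77 ± 0.0836 (edgeR SE, adjusted p = 2.96e-06), while the 7 tested genes within 5 Mb had a median of 0.52.

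The genes that assemble the linear chains cut by OTULIN and CYLD were among the partner subunits listed for the members. RBCK1 (HOIL-1) had a log2 fold change of 0.86 ± 0.0705 (edgeR SE, adjusted p = 1.88e-07) and SHARPIN one of 0.37 (edgeR adjusted p = 0.000655). RNF31, the catalytic subunit HOIP, had few counts, 6, 12 and 9 in NOZ-R and 19, 12 and 5 in NOZ, and did not pass. TNFAIP3 (A20), an OTU deubiquitinase outside the selected set that limits NF-kappaB signalling, measured 60.3, 64.9 and 58.3 CPM in NOZ-R and 8.44, 8.75 and 8.06 CPM in NOZ, a log2 fold change of 2.86 ± 0.0866 (edgeR SE, adjusted p = 9.03e-12).

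Members that act on DNA damage, p53 and the cell cycle were split. Of 11 tested genes, 4 were higher, 5 lower and 2 did not pass. Each gene was counted under a single role, so these counts depend on the grouping. USP45 and USP2, tied further on to repair or to MDM2 and cyclin D1, are counted elsewhere, where USP45 was lower. USP46 and USP12 are counted here, although only their partners are described. Among all tested members, the largest increase after USP18 was in USP46 (chromosome 4, 52590972 to 52659335), which works with the WD40 proteins WDR48 and WDR20. It measured 12.1, 13.8 and 11.8 CPM in the NOZ-R libraries, against 5.04, 5.71 and 4.74 CPM in the NOZ libraries. All NOZ-R libraries lay above all NOZ libraries, and the log2 fold change was 1.28 ± 0.129 (edgeR SE, adjusted p = 1.49e-06), with a median of 0.06 over its 32 tested neighbours within 5 Mb. The close paralogue USP12, which uses the same partners, measured 135, 141 and 145 CPM in NOZ-R and 125, 150.5 and 129 CPM in NOZ and did not pass, at 0.06 ± 0.0719 (edgeR SE, adjusted p = 0.5). USP1, the third enzyme that needs WDR48, measured 135, 142 and 164 CPM in NOZ-R and 109.7, 149 and 116 CPM in NOZ, with overlap, and its log2 fold change of 0.24 ± 0.104 (edgeR SE, adjusted p = 0.064) passed in 6 of 17 alternative settings. It passed without NOZ replicate 2 (edgeR adjusted p = 3.83e-05) and without NOZ-R replicate 1 (edgeR adjusted p = 0.0473). WDR48 and WDR20 themselves did not pass, at 0.08 ± 0.0745 (edgeR SE, adjusted p = 0.402) and -0.13 ± 0.0940 (edgeR SE, adjusted p = 0.239), while the related DMWD was higher, at 0.75 ± 0.0948 (edgeR SE, adjusted p = 1.24e-05).

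USP7 (chromosome 16, 8892094 to 8964514), which stabilises the p53 ligase MDM2, was higher, at 242, 256 and 252 CPM in the NOZ-R libraries, against 194, 204 and 195 CPM in the NOZ libraries, a log2 fold change of 0.34 ± 0.0532 (edgeR SE, adjusted p = 9.30e-05). USP10 (chromosome 16, 84699978 to 84779922), which acts on p53 and binds the stress granule protein G3BP1, measured 157, 156 and 157 CPM in NOZ-R and 128, 133 and 132 CPM in NOZ, a log2 fold change of 0.26 ± 0.0536 (edgeR SE, adjusted p = 0.00098). Both lie on chromosome 16, where the medians of their neighbours within 5 Mb were 0.33 and 0.32, and the USP10 call was lost under scaling by library size alone (edgeR adjusted p = 0.0539). USP37 (chromosome 2, 218450251 to 218568361), which stabilises cyclin A, measured 23.7, 25.6 and 23.7 CPM in NOZ-R and 18.3, 20.5 and 20.4 CPM in NOZ, at 0.31 ± 0.0870 (edgeR SE, adjusted p = 0.00799), which 3 of the 17 settings did not call. OTUB1 (chromosome 11, 63985853 to 64001811), which blocks the E2 enzyme UBE2N in the damage response, was lower, at 57.7, 56.1 and 57.9 CPM in NOZ-R and 78.7, 66.5 and 75.0 CPM in NOZ, with no overlap and a log2 fold change of -0.36 ± 0.0729 (edgeR SE, adjusted p = 0.000778). UBE2N was lower, at -0.16 ± 0.0557 (edgeR SE, adjusted p = 0.0208), which 5 of the 17 settings did not call. Smaller decreases were found in USP28 (-0.34), USP47 (-0.32), USP11 (-0.24) and USP4 (-0.19), of which the USP28 call alone held in every alternative setting. Those settings include a threshold of 0.01 on the main fit, which a call with a main adjusted p above 0.01 fails by construction. This applies to USP47, USP11 and USP4 (edgeR adjusted p = 0.01265, 0.0233 and 0.0238). The calls of USP11 and USP4 were lost when any library but NOZ replicate 2 was left out (edgeR adjusted p = 0.0644 to 0.12 for USP11 and 0.0565 to 0.119 for USP4), and that of USP47 without NOZ-R replicate 1 (edgeR adjusted p = 0.0643).

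**Figure D4:**
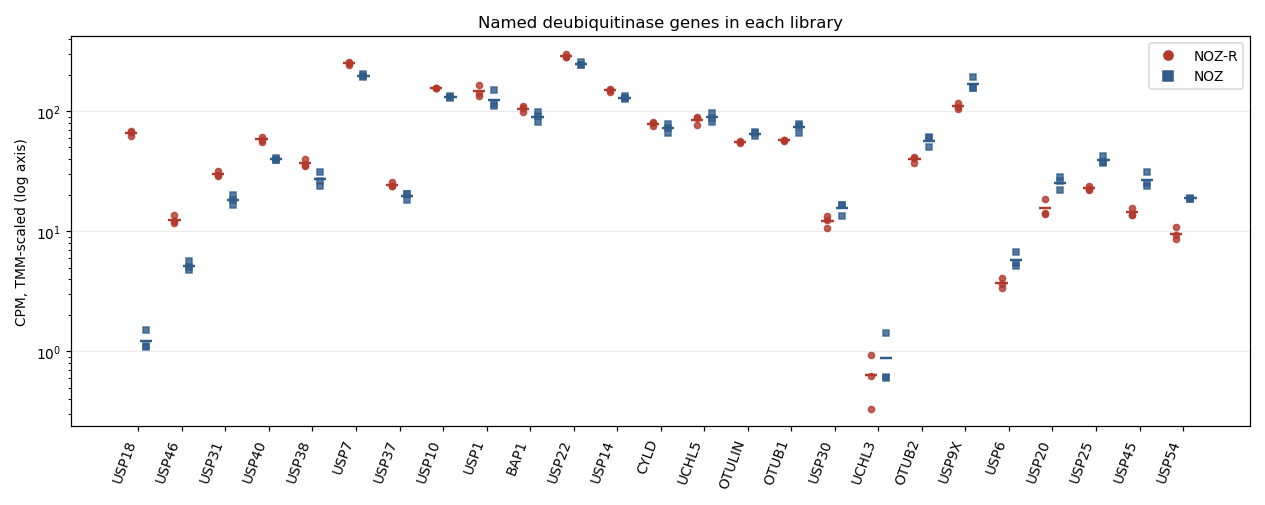
CPM on a log axis in each NOZ-R library (red circles) and NOZ library (blue squares), with bars at the means, for the 25 named deubiquitinase genes that were tested, ordered by log2 fold change. The distance between the lines is wide for USP18 and modest elsewhere, and the libraries of the lines overlap for genes such as CYLD, USP1, UCHL5 and UCHL3.

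Among the members that act on chromatin, 8 were tested, with 2 higher, 1 lower and 5 that did not pass. USP22 (chromosome 17, 20999593 to 21043760) measured 299.9, 280.2 and 285 CPM in NOZ-R and 256, 245 and 244 CPM in NOZ. The lines did not overlap, but the log2 fold change of 0.22 ± 0.0525 (edgeR SE, adjusted p = 0.00287) was no longer called under library size scaling (edgeR adjusted p = 0.165), after GC correction (edgeR adjusted p = 0.067) or with limma on FPKM. USP27X, which shares the SAGA adaptors ATXN7L3 and ENY2 with USP22, was lower, at 1.95 ± 0.294 CPM in NOZ-R and 3.58 ± 0.222 CPM in NOZ (SD, n = 3 each), with a change in log2 of -0.88 ± 0.200 (edgeR SE, adjusted p = 0.00182). USP51, the third enzyme that uses these adaptors, had 0 counts in every library. ATXN7L3 rose by 0.27 (edgeR adjusted p = 0.00566) and ENY2 did not pass, at 0.11 ± 0.0746 (edgeR SE, adjusted p = 0.223). BAP1 (chromosome 3, 52401013 to 52410350), a tumour suppressor that removes ubiquitin from histone H2A, measured 111, 107 and 97.8 CPM in NOZ-R and 91.7, 80.8 and 98.3 CPM in NOZ. Its libraries overlapped between the lines, and the log2 fold change of 0.22 ± 0.0775 (edgeR SE, adjusted p = 0.0232) lost its call in 7 of 17 settings, among them those without NOZ-R replicate 1 or 2 (edgeR adjusted p = 0.0971 and 0.0768). Its partner genes ASXL1 and ASXL2 rose by 0.16 and 0.30, and HCFC1 by 0.41 (edgeR adjusted p = 0.0257, 0.00404 and 5.34e-05). USP16, USP21, USP36, USP49 and USP3 did not pass, with log2 fold changes between -0.19 and 0.16, and USP44 had at most 7 counts in a library.

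Among the enzymes that recycle ubiquitin or sit on the proteasome, 5 were tested, and 1 was higher and 4 did not pass. USP14 (chromosome 18, 158383 to 214629), which trims chains on the proteasome, measured 146, 154 and 149.9 CPM in the NOZ-R libraries, against 130.0, 126 and 134 CPM in the NOZ libraries. The lines did not overlap, the log2 fold change was 0.21 ± 0.0563 (edgeR SE, adjusted p = 0.00586), and the call was lost in 3 of 17 settings. UCHL5 (chromosome 1, 193012250 to 193060080), the other cysteine protease of the proteasome, measured 76.7, 88.3 and 88.7 CPM in NOZ-R and 81.4, 97.4 and 87.4 CPM in NOZ, with overlap, and did not pass, at -0.07 ± 0.0802 (edgeR SE, adjusted p = 0.469). Its sign was positive without NOZ replicate 2 or without NOZ-R replicate 1. ADRM1, the proteasome subunit that holds UCHL5, rose by 0.53 ± 0.0987 (edgeR SE, adjusted p = 0.000396). USP5, which cuts free chains, and its paralogue USP13 did not pass, at 0.12 and -0.15 (edgeR adjusted p = 0.179 and 0.103).

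UCHL1, known from neurons, had 0 counts in every library. UCHL3 (chromosome 13, 75549480 to 75606020) was close to the detection limit, with 17, 10 and 5 counts in NOZ-R and 12, 11 and 21 counts in NOZ. It did not pass, at -0.38 ± 0.468 (edgeR SE, adjusted p = 0.497), and its sign was positive without NOZ replicate 3. In GENCODE release 29, 30.4% of its exonic bases are shared with another gene model on the same strand, so its counts are uncertain.

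Among the members that act on membranes, mitochondria and the endoplasmic reticulum, none of 9 was higher, 4 were lower and 5 did not pass. Over all tested genes 60.2% were called, 30.4% higher and 29.8% lower, and here 44.4%. USP9X (chromosome X, 41085635 to 41236579), a large enzyme that protects many substrates including the survival protein MCL1, fell to 105, 109 and 118 CPM in the NOZ-R libraries, against 158, 193 and 156 CPM in the NOZ libraries. The lines did not overlap, and the log2 fold change was -0.61 ± 0.0828 (edgeR SE, adjusted p = 2.40e-05). USP20 (chromosome 9, 129834698 to 129881838), which acts on receptor recycling, measured 18.6, 13.9 and 14.3 CPM in NOZ-R and 26.1, 22.2 and 28.1 CPM in NOZ, also with no overlap, at -0.70 ± 0.123 (edgeR SE, adjusted p = 0.000258). Its paralogue USP33 measured 105, 112 and 114 CPM in NOZ-R and 113, 119 and 104 CPM in NOZ and did not pass, at -0.02 ± 0.0659 (edgeR SE, adjusted p = 0.793). USP30 (chromosome 12, 109023089 to 109088026), which opposes removal of damaged mitochondria by parkin, was lower at 13.4, 12.3 and 10.7 CPM in NOZ-R and 16.7, 13.5 and 16.7 CPM in NOZ, with a log2 fold change of -0.36 ± 0.121 (edgeR SE, adjusted p = 0.0194). That call was lost in 4 of 17 settings, among them without NOZ replicate 1 or 3 and without NOZ-R replicate 3 (edgeR adjusted p = 0.082, 0.069 and 0.085).

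USP6 (chromosome 17, 5116438 to 5175034), an oncogene of aneurysmal bone cyst that arose in apes from USP32 and another gene, was rare, at 3.37, 3.65 and 4.09 CPM in NOZ-R and 5.19, 6.76 and 5.42 CPM in NOZ, a log2 fold change of -0.65 ± 0.167 (edgeR SE, adjusted p = 0.00429). Its sequence is close to that of USP32, which measured 116 ± 1.42 CPM in NOZ-R and 108 ± 3.66 CPM in NOZ (SD, n = 3 each), so its counts are uncertain. USP8, which works on endosomes with STAM and STAM2, did not pass, at -0.08 ± 0.106 (edgeR SE, adjusted p = 0.535), while STAM fell by 0.67 and STAM2 rose by 0.68 as log2 values (edgeR adjusted p = 2.59e-06 and 7.40e-06). STAM lies on chromosome 10, whose tested genes had a median of -0.60. USP19, USP32 and USP35 did not pass, at 0.15, 0.10 and -0.25 as log2 fold changes.

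Members with other or less defined roles held the largest decreases. Of 14 tested, 3 were higher, 4 lower and 7 did not pass. USP54 (chromosome 10, 73497538 to 73625953) had 10.8, 9.35 and 8.65 CPM in the NOZ-R libraries, against 19.1, 18.7 and 18.8 CPM in the NOZ libraries, a log2 fold change of -0.97 ± 0.106 (edgeR SE, adjusted p = 3.27e-06), and 16.1% of its exonic bases overlap an antisense gene, PPP3CB-AS1, whose level did not pass the test. USP45 (chromosome 6, 99432379 to 99521728), which acts on the repair nuclease subunit ERCC1, measured 13.7, 15.8 and 13.7 CPM in NOZ-R and 25.1, 31.5 and 24.0 CPM in NOZ, at -0.90 ± 0.114 (edgeR SE, adjusted p = 1.31e-05). The lines did not overlap for either gene. OTUB2 (chromosome 14, 94026329 to 94048930), the relative of OTUB1, measured 40.9, 36.9 and 41.5 CPM in NOZ-R and 59.8, 50.2 and 60.9 CPM in NOZ, at -0.52 ± 0.0864 (edgeR SE, adjusted p = 0.000152). Its exons overlap those of DDX24 on the opposite strand over 15.1% of their length. DDX24 was more abundant, at a mean of 277 CPM in NOZ-R and 313 CPM in NOZ. It was also lower, at -0.18 ± 0.0501 (edgeR SE, adjusted p = 0.0077). Since the library protocol in the labels names no strand-marking step, reads in the overlap cannot be assigned with certainty. USP42 was lower by a small amount, at -0.26 ± 0.0873 (edgeR SE, adjusted p = 0.021), and that call was lost without NOZ replicate 3 or any 1 NOZ-R library (edgeR adjusted p = 0.0551 to 0.103).

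USP31 (chromosome 16, 23061406 to 23149270), linked to NF-kappaB signalling, rose to 28.9, 31.8 and 29.7 CPM in the NOZ-R libraries, against 20.3, 18.4 and 16.5 CPM in the NOZ libraries, a log2 fold change of 0.71 ± 0.0929 (edgeR SE, adjusted p = 1.79e-05). In USP31, 23.0% of the exonic bases are shared with another gene model on the same strand. USP40 (chromosome 2, 233475520 to 233566782) measured 57.8, 61.2 and 55.8 CPM in NOZ-R and 39.1, 38.9 and 41.2 CPM in NOZ, at 0.55 ± 0.0697 (edgeR SE, adjusted p = 1.24e-05), again with no overlap. USP38 (chromosome 4, 143184917 to 143223830), which acts on the kinase TBK1, measured 34.7, 35.6 and 40.0 CPM in NOZ-R and 23.8, 31.2 and 26.5 CPM in NOZ, at 0.44 ± 0.102 (edgeR SE, adjusted p = 0.00214). The USP38 call was lost with limma on FPKM, while those of USP31 and USP40 held in all 17 settings. USP48, USP15, USP39 (a splicing factor), USP34, USP24, USP43 and USP53 did not pass, with log2 fold changes between -0.24 and 0.09.

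USP2, which acts on MDM2 and cyclin D1, had too few counts for the filter, 13, 6 and 13 in the NOZ-R libraries and 1, 3 and 1 in the NOZ libraries. Every NOZ-R library was above every NOZ library, and without the filter the log2 fold change was 2.69 (edgeR adjusted p = 0.0012). In GENCODE release 29, 17.5% of the exonic bases of USP2 overlap an antisense model, AP003396.3, and reads from that stretch cannot be assigned to either gene without strand. USP29 had 0 counts in every library, USP26 had 1 count in all, and USP50, of whose exonic bases 28.6% overlap USP8 on the opposite strand, had 12, 1 and 6 counts in NOZ-R and 11, 7 and 9 counts in NOZ.

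Paralogues, some of which share partners or substrates, were set against each other within each library. The value was the share of the pair's counts held by the first-named gene, which does not depend on scaling between libraries. The 8 pairs were chosen after the values had been seen. USP46 held 8.23%, 8.87% and 7.5% in NOZ-R, against 3.87%, 3.65% and 3.55% in NOZ, of the counts of USP46 and USP12. USP27X held 0.568%, 0.659% and 0.793% in NOZ-R, against 1.44%, 1.34% and 1.48% in NOZ, of those of USP27X and USP22. USP54 held 30.8%, 29.1% and 26.0% in NOZ-R, against 44.5%, 35.2% and 41.9% in NOZ, of those of USP54 and USP53. All of these shares moved without overlap of the lines, upward in NOZ-R for USP46 and downward for the other two.

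USP20 held 15.1%, 11% and 11.1% in NOZ-R, against 18.8%, 15.7% and 21.3% in NOZ, of the counts of USP20 and USP33, and here the lowest NOZ library was close to the highest NOZ-R library. USP25 held 38.7% ± 1.54 in NOZ-R and 45.9% ± 1.47 in NOZ of the counts of USP25 and USP28 (SD, n = 3 each). For OTUB2 against OTUB1 the share was 41.0% ± 1.14 in NOZ-R and 43.7% ± 0.987 in NOZ, and for USP13 against USP5 it was 20.1% ± 0.734 in NOZ-R and 23.4% ± 3.25 in NOZ (SD, n = 3 each). The shares of USP4 against USP15 overlapped between the lines. Because of how the pairs were chosen, these shares are a description, with no test.

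Several of the lower members lie where many genes were lower in NOZ-R. On chromosome X, whose tested genes had a median log2 fold change of -0.44, all 3 tested members were lower, USP27X at -0.88, USP9X at -0.61 and USP11 at -0.24. USP20 lies on chromosome 9, with a median of -0.64, and USP54 on chromosome 10, with a median of -0.60. By contrast USP45 lies on chromosome 6, with a median of 0.33, and USP25 on chromosome 21, with a median of 0.20, and both were lower. Within 5 Mb, however, the median was only 0.03 around USP45, and it was 0.52 around USP25. Of the 27 called members, 20 (74.1%) had the same sign as the median of the tested genes within 5 Mb, and over all called genes with a position the share was 69.3%. The number of gene copies was not measured, so its part in these values was not tested.

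**Figure D5:**
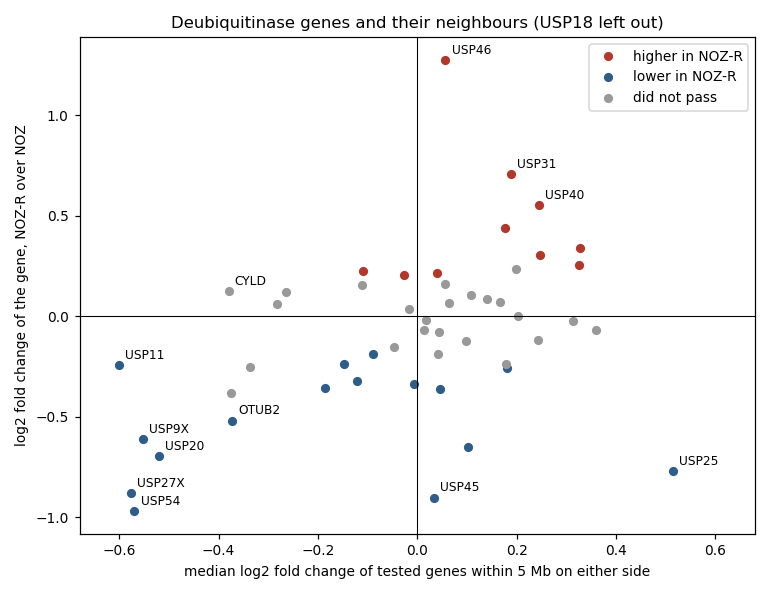
Log2 fold change of each tested deubiquitinase gene except USP18 (y axis) against the median log2 fold change of the tested genes within 5 Mb on either side (x axis). USP54, USP27X, USP20, USP9X and USP11 lie among neighbours that were lower in NOZ-R, whereas USP25 was lower among neighbours with a median of 0.52 and USP46 was higher among neighbours near 0.

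The remaining genes of the ubiquitin system gave a broader background. Of 31 genes of other deubiquitinase families, 27 were tested, with 12 higher, 8 lower and 7 that did not pass. The median log2 fold change was 0.18, beside -0.01 over all tested genes. After TNFAIP3, the largest increases were in OTUD1, at 1.56 ± 0.210 (edgeR SE, adjusted p = 2.27e-05), and in the proteasome lid subunit PSMD7, at 0.81 ± 0.0766 (edgeR SE, adjusted p = 7.63e-07). The largest decreases were in the histone H2A deubiquitinase MYSM1, at -0.86 ± 0.0848 (edgeR SE, adjusted p = 1.21e-06), in OTUD5, at -0.70 ± 0.0769 (edgeR SE, adjusted p = 3.56e-06), and in ZRANB1, at -0.63 ± 0.0982 (edgeR SE, adjusted p = 8.48e-05). OTUD5 lies on chromosome X and ZRANB1 on chromosome 10. Genes that rose lie there too, OTUD1 on chromosome 10 and the partner gene HCFC1, at 0.41, on chromosome X. Under library size scaling the split of this list was 7 higher and 9 lower.

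Of 26 partner subunits of the members, all were tested, 16 were higher, 3 lower and 7 did not pass. Their median was 0.22, beside -0.01 over all tested genes, and under library size scaling 8 were higher and 6 lower. The third decrease beside STAM and UBE2N was in UBE2V1, the partner of UBE2N, at -0.99 ± 0.202 (edgeR SE, adjusted p = 0.000807). Of 6 ubiquitin genes and activating enzymes, 2 were higher and 1 lower. The ubiquitin fusion gene RPS27A rose by 0.39 ± 0.0709 (edgeR SE, adjusted p = 0.000335), while UBA1, the main E1 enzyme of ubiquitin, on chromosome X, changed by -0.46 ± 0.0655 (edgeR SE, adjusted p = 4.11e-05). Of 15 tested proteases of other ubiquitin-like proteins, 1 was higher and 5 lower, or 1 and 9 under library size scaling. The autophagy protease ATG4B rose by 0.32 ± 0.0762 (edgeR SE, adjusted p = 0.00269), its relative ATG4D changed by -0.65 ± 0.0988 (edgeR SE, adjusted p = 6.89e-05), the SUMO proteases SENP7 by -0.61 ± 0.104 (edgeR SE, adjusted p = 0.000182) and USPL1 by -0.33 ± 0.0835 (edgeR SE, adjusted p = 0.00399).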

How the data were processed

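The authors deposited whole-number counts per gene, not normalized, for 63140 genes, and FPKM values of the same genes. Per the submitters' processing notes, reads were processed with fastp 0.22.0 and the build was GRCh38. The aligner, counter, strand setting and annotation used are not stated in the labels. Each deposited FPKM value was the gene's count over its library total and over 1 length per gene. The implied length differed by at most 9.25e-15 of itself between libraries.

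Counts of all 6 libraries were fitted with edgeR 4.0.16 in R 4.3.3 (filterByExpr on the line, TMM factors 0.954 to 0.961 in NOZ-R and 1.04 to 1.05 in NOZ, quasi-likelihood test, Benjamini-Hochberg adjustment at 0.05 over 14386 genes). CPM values use TMM-scaled library sizes. Standard errors were taken as the absolute log2 fold change over the root of its F statistic, which may be too small for genes with few counts. Fold changes are NOZ-R over NOZ. The members and lists were chosen with earlier results of these data known. Values were given per library for USP18, the 8 largest increases and 8 largest decreases among members past the test with at least 5 CPM in a line, and 13 members fixed by name. All other members were accounted for by value or range, and those given with values of their own, such as USP27X and USP2, were named after their values were seen. Some genes of the lists are counted in them but not reported here by name.

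Positions and transcript GC content came from GENCODE release 29, matched for 13914 of the tested genes and all 58 members. The alternatives changed the scaling (size factors of DESeq2, upper quartile, library size alone) or the filter (none, or 1 CPM in 3 libraries). Others changed the test (DESeq2 1.42.0 Wald, or limma 3.58.1 on FPKM plus 1 or plus 0.1 in log2). The rest used the replicate number as a block, a GC correction (loess, span 0.3), a threshold of 0.01 on the main fit or left out each library. Calls with a main adjusted p from 0.01 to 0.05 fail that threshold by construction. FPKM is scaled by the library total only, so the limma fits also drop the TMM factors and overlap with library size scaling. The median log2 fold change of all genes was -0.083 and -0.131 in the limma fits and -0.142 under library size scaling. To look for duplicate libraries, replicate pairs were compared by chi-square, whose mean per gene was 2.67 to 4.04 in NOZ-R. In NOZ it was 2.16 for replicates 1 and 3, but 11.2 and 9.64 for replicate 2 against replicates 1 and 3. All pairs were above the value of about 1 expected from sampling alone, and all 6 libraries were kept. The scripts were tested on simulated data. Figures were drawn with matplotlib 3.10.9.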

Additional observations from a re-analysis of the deposited data

How the results depend on the processing

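USP18 kept its direction and its call under all 17 alternatives, with log2 fold changes of 5.59 to 5.90 on counts. On log2(FPKM + 1) it was 3.56 and on log2(FPKM + 0.1) 5.21, since a pseudocount understates the change of a gene this rare in NOZ. Of the 27 calls among the members, 16 held in all 17 alternatives, 5 of them higher (USP18, USP46, USP31, USP40 and USP7) and 11 lower, and none was called in the opposite direction. A call with a main adjusted p above 0.01 cannot hold in all 17, because the threshold of 0.01 is among them. At that threshold 10 members were higher and 11 lower. The number of higher members was 6 under library size scaling and 6 in both limma fits, and 11 to 19 when a library was left out, while the number of lower members was 12 to 16 with a library left out. Library size alone removed the calls of USP14, USP10, USP22, USP37 and BAP1 and added decreases of 6 others.

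Some signs were reversed for members that were not called. CYLD was at -0.0019 under library size scaling, UCHL5 at 0.0029 without NOZ replicate 2 and 0.00046 without NOZ-R replicate 1, and UCHL3 at 0.10 without NOZ replicate 3. With any 1 library left out, UCHL5 ran from -0.12 to 0.0029 and UCHL3 from -0.80 to 0.10. In the ISG15 list the number of lower genes was 1 with no filter, with the replicate block, at the threshold of 0.01 and in the DESeq2 Wald test, 1 to 2 with a library left out, and 3 under library size scaling. In the other deubiquitinase families the number of higher genes was 7 under library size scaling and in both limma fits, and 9 to 14 with a library left out. Among partner subunits 8 were higher under library size scaling and in both limma fits. There 6 were lower under library size scaling and after GC correction, 5 in both limma fits, and 2 to 5 with a library left out. Among the proteases of other ubiquitin-like proteins 0 were higher in both limma fits, and 9 were lower in those and under library size scaling. The cause of these changes was not tested beyond the shift of the median of all genes.

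The replicate numbers were not shown to pair the libraries. The deviations of same-numbered libraries correlated at 0.0682, -0.0224 and -0.0365, and not every library correlated best with its own number. With the replicate number as a block, 12 members were higher and 16 lower, and USP18 was at 5.72. UCHL3, USP2, USP44 and USP50 had too few counts for a change to be detectable at this depth unless it was large.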
